A study of Homo sapiens with 1 sample.

Results

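The miR-200 family was examined in DLD-1, an established human colorectal carcinoma cell line that had received a non-targeting control siRNA (si-NC). MicroRNAs (miRNAs) are short regulatory RNAs excised from hairpin precursors, in which either strand of the stem, called the 5p or the 3p arm, may become a mature product. Members were taken by name, as every mature miRNA on the array from 2 genomic loci. This gave 9 of the 2549 miRNAs measured. The locus on chromosome 1 contributed hsa-miR-200b-3p, hsa-miR-200b-5p, hsa-miR-200a-3p, hsa-miR-200a-5p and hsa-miR-429, and the locus on chromosome 12 contributed hsa-miR-200c-3p, hsa-miR-200c-5p, hsa-miR-141-3p and hsa-miR-141-5p. The species prefix is dropped from here on. The product miR-429 comes from the 3p side of its hairpin. These si-NC cells served as the control for knockdown of circLONP2, a circular RNA that the study examined in metastasis of colorectal carcinoma. The miRNA arrays were its screen for miRNAs altered by circLONP2. Only 1 array, that of the si-NC cells, was analysed, so there was no comparison of groups, no p-value and no measure of the spread between cultures. Every error given is technical.

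The miR-200 family is known for maintaining the epithelial state. Its 3p arms bind the transcripts of ZEB1 and ZEB2, repressors of the E-cadherin gene, and these factors in turn repress both miR-200 loci, so that each side of the loop holds down the other. Loss of the family accompanies the epithelial to mesenchymal transition, and in the intestine its members are found in the epithelium. Target choice depends mainly on the seed, bases 2 to 8 of the mature miRNA.

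The mature sequences are shown because the family divides by a single base of the seed. They are given 5′ to 3′ from RefSeq (GRCh38.p14), with the seed in capitals. The 3p arms were:
miR-200b-3p: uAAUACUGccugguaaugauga
miR-200c-3p: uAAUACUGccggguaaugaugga
miR-429: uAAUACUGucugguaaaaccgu
miR-200a-3p: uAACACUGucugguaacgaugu
miR-141-3p: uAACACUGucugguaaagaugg
The 5p arms with an entry were:
miR-200b-5p: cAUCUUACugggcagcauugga
miR-200a-5p: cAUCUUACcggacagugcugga
miR-200c-5p: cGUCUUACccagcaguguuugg

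The first 3 of the 3p arms share the seed AAUACUG and the other 2 share AACACUG, so each locus holds a member of either seed group. Counting from 1 at the 5′ end, miR-200b-3p and miR-141-3p differ within the seed by U4C alone. Their seeds pair with CAGUAUU and CAGUGUU in a target. Within a seed group the closest pairs lie on different chromosomes. miR-200b-3p and miR-200c-3p differ by U11G and A22G over their first 22 bases, and miR-200a-3p and miR-141-3p by C17A and U22G. The remaining member, miR-429, differs from miR-200b-3p at 6 of 22 positions, all outside the seed. None of the other miRNAs on the array with a sequence in the table has the seed of a 3p arm, and the nearest of them stands 7 edits away, while the pairs just named stand 2 edits apart. Among the 5p arms miR-200b-5p and miR-200a-5p share the seed AUCUUAC, and miR-200c-5p shares GUCUUAC with miR-550a-3p, which is not of the family. Probe sequences were not used here, and how far the probes separate such close sequences was not tested.

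In RefSeq (GRCh38.p14, plus strand) the hairpin MIR200B lies at chr1:1167104-1167198 and MIR429 at chr1:1169005-1169087. The mature arms of MIR200A lie between them, miR-200a-5p at chr1:1167878-1167899 and miR-200a-3p at chr1:1167916-1167937. All 3 fall within the span of the long noncoding RNA gene MIR200BHG. The hairpins MIR200C at chr12:6963699-6963766 and MIR141 at chr12:6964097-6964191 fall within that of MIR200CHG, between the protein-coding genes PTPN6 and PHB2. Whether these positions are exonic was not analysed here. The array itself was designed on hg19. One hairpin of each locus is printed with its mature arms in capitals, to show where the 2 arms sit in the precursor.
MIR200B: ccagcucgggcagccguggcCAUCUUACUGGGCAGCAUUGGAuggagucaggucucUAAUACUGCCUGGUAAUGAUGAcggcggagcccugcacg
MIR200C: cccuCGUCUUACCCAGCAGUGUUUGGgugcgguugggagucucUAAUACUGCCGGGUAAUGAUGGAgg

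All 9 members were called detected by the scanner software, against 44.4% of the 2549 miRNAs on the array. Each member was measured by 20 replicate spots spread over 2 to 4 probes, 25 probes in all. All 180 member spots were well above background and none was saturated. All 20 spots of a miRNA were well above background for 25.2% of the miRNAs on the array. The lowest member spot, a spot of miR-200b-5p, had a background-subtracted signal of 41.2 intensity units. The 99th percentile of the 1000 negative control spots was 16.1 and their highest value was 45.4, and the dimmest probe of miR-200b-5p, with a mean of 42.5, was the one member probe whose mean lay within the range of the controls.

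**Figure D1:**
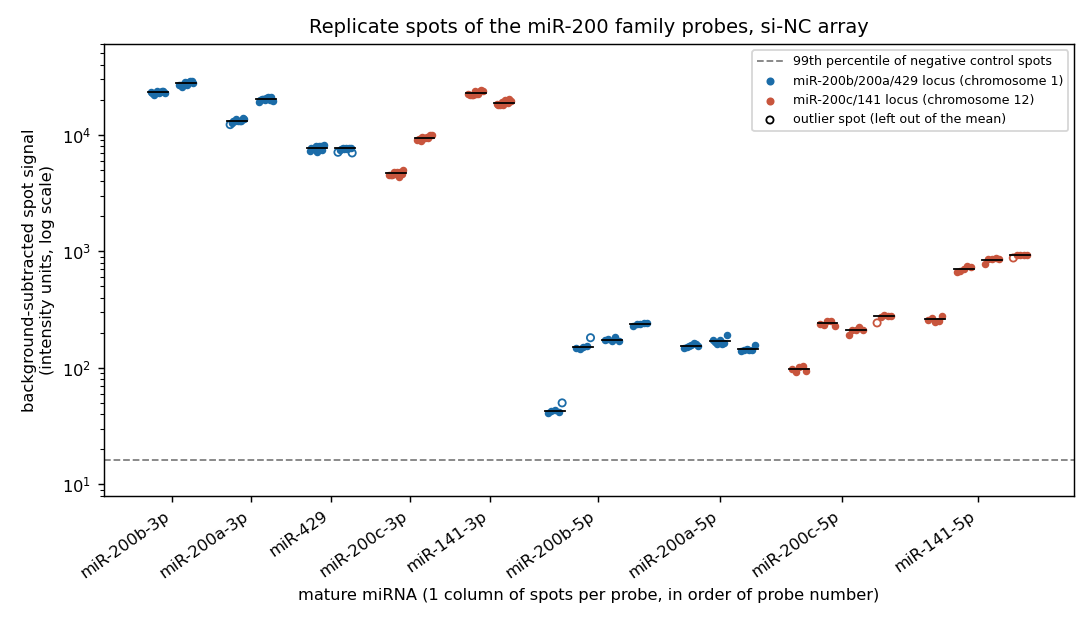
Each point is a replicate spot of a probe on the si-NC array, with the background-subtracted spot signal on a log axis and 1 column of spots for each of the 25 probes. Horizontal bars are means without outlier spots, which are drawn open. Spots of the 3p arms lie between 4374 and 28774, those of the 5p arms between 41.2 and 938, and every spot lies above the dashed line at 16.1.

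The 3p arms carried most of the family signal, 98.5% of the summed total gene signal of the 9 members. The total gene signal is the sum of the total probe signals of a miRNA, with an error from the error model of the software. A total probe signal is 0.0183 times the number of spots times their mean, so it is on another scale than the spots. At the chromosome 1 locus miR-200b-3p reached 9249 ± 657, with spots from 22084 to 28774 about a median of 24715. For miR-200a-3p the signal was 6109 ± 441 and the spots ran from 12201 to 21239 (median 16448). The last product of this locus, miR-429, gave 2801 ± 198, with spots from 6974 to 8201 (median 7639). Spots of miR-429 did not overlap those of either neighbour in the locus. At the chromosome 12 locus miR-141-3p gave 7625 ± 542, its spots ranging from 17866 to 24250 (median 20918). The signal of miR-200c-3p was 2576 ± 193, with spots from 4374 to 10030 (median 6925). Each locus thus held brighter and dimmer 3p arms. The members of a seed group did not have like signals, and no spot of miR-200c-3p or miR-429 reached the lowest spot of miR-200b-3p, which has the same seed. How often the spots of different miRNAs do not overlap was not counted over the array. Signals of different miRNAs rest on different probes and do not measure relative amounts of RNA.

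The 5p arms, which are the less studied strands of these hairpins, were detected with weaker signals. The total gene signal was 251 ± 13.4 for miR-141-5p, with spots from 246 to 938 and a median of 766. It was 75.6 ± 4.01 for miR-200c-5p, whose spots ran from 92.0 to 285 (median 225). For miR-200a-5p it was 57.5 ± 3.39, with spots from 138 to 190 (median 157). For miR-200b-5p it was 55.3 ± 3.09, with spots from 41.2 to 244 (median 170). The spots of miR-141-5p reached the highest values of the 4, though those of its dimmest probe overlapped the spots of miR-200c-5p, and the spots of the other three overlapped one another.

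Hairpin by hairpin, the 3p and the 5p signal stood at 9249 and 55.3 for MIR200B, 6109 and 57.5 for MIR200A, 2576 and 75.6 for MIR200C and 7625 and 251 for MIR141. In none of the 4 did the spots of the arms overlap, though how often this holds over all hairpins on the array was not counted. Both arms were detected for all 4 hairpins, compared with 28.6% of the 810 hairpins with both arms on the array. Both arms with all spots well above background were found for 9.51% of those 810 hairpins, and for 4 of 4 here.

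**Figure D2:**
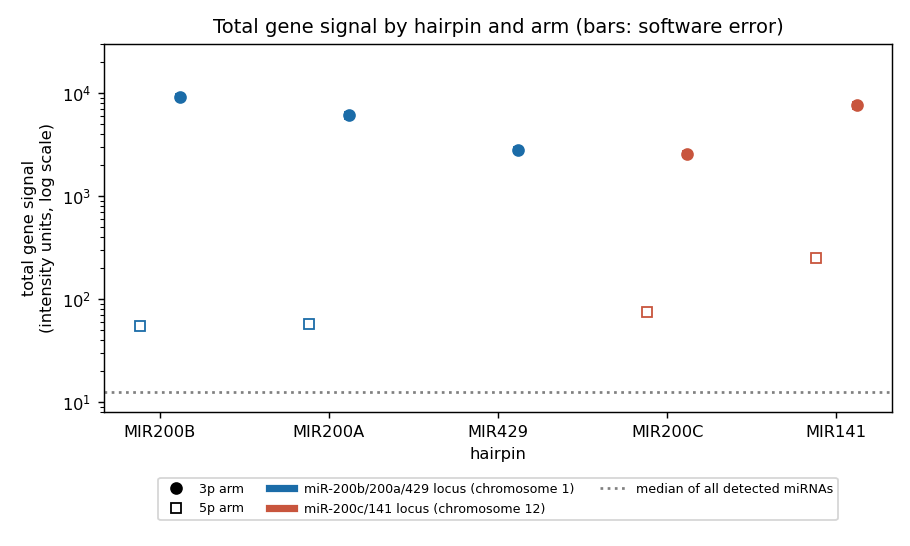
Total gene signal (intensity units, log axis) of each member, by hairpin along the horizontal axis, with filled circles for 3p arms and open squares for 5p arms. Bars show the error of the software and are mostly hidden by the symbols. All 9 members lie above the dotted line, the median of 12.5 over all detected miRNAs.

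Ordered by total gene signal, the family ran miR-200b-3p, miR-141-3p, miR-200a-3p, miR-429, miR-200c-3p, miR-141-5p, miR-200c-5p, miR-200a-5p and miR-200b-5p. Neighbours in this order were set apart by their difference over its error. For 3 neighbouring pairs the difference was under 2 errors, at 1.91 for miR-200b-3p and miR-141-3p, 0.814 for miR-429 and miR-200c-3p, and 0.464 for miR-200a-5p and miR-200b-5p. The order within these pairs was therefore not resolved. The step from miR-141-3p to miR-200a-3p was 2.17 errors, and the steps from miR-200a-3p to miR-429 and from miR-200c-3p to miR-141-5p were 6.84 and 12.05 errors. These errors do not hold the differences between probes described further on.

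Among the 1133 detected miRNAs the 3p arms took ranks 13, 15, 22, 37 and 39 by total gene signal, and the 5p arms ranks 120, 236, 266 and 272. The lowest of them, miR-200b-5p, still exceeded 76.0% of the detected miRNAs. The 9 members made up 0.794% of the detected miRNAs and 5.95% of the summed signal. Such ranks describe brightness on this array and depend on the probes.

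**Figure D3:**
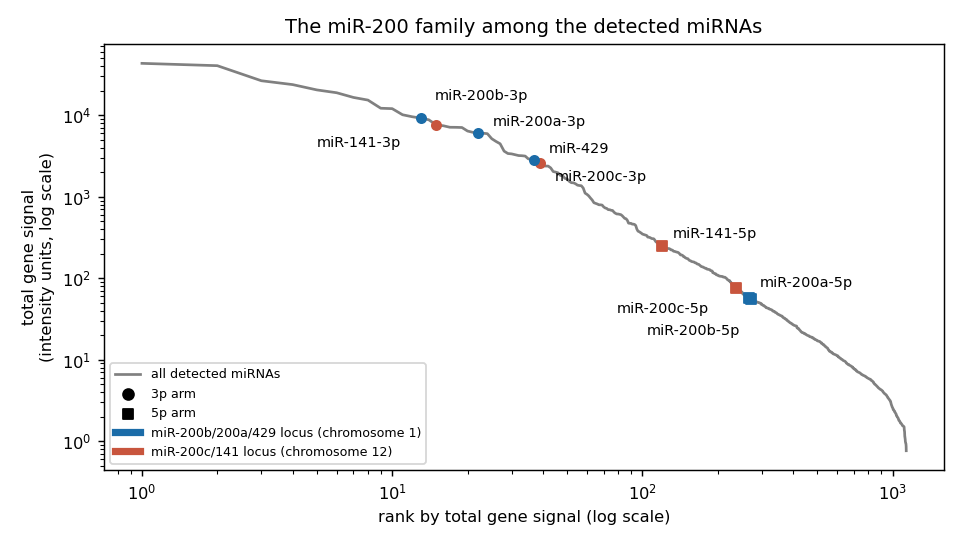
Total gene signal (intensity units, log axis) against rank (log axis) for the 1133 detected miRNAs, drawn as a grey line, with the members as circles (3p) and squares (5p). The 3p arms occupy ranks 13 to 39 and the 5p arms ranks 120 to 272.

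On the log2 scale the level of a member was taken as the mean over its probes of the log2 mean spot signal, relative to a reference of 143 intensity units, the 75th percentile of all spots belonging to detected miRNAs. A level of 0 is thus a signal equal to that percentile. The level of miR-200b-3p was 7.46 ± 0.04 (SD of spots about the mean of their probe), that of miR-141-3p 7.19 ± 0.06, and that of miR-200a-3p 6.84 ± 0.05. For miR-429 and miR-200c-3p it was 5.75 ± 0.05 and 5.54 ± 0.06. Outlier spots were left out of these means, 7 of the 180. The median level was 6.84 over the 5 3p arms and 0.28 over the 4 5p arms, beside -2.20 over all detected miRNAs. Among the 5p arms miR-141-5p lay at 2.11 ± 0.06, and miR-200b-5p at -0.16 ± 0.04. Of the 4 probes of miR-200b-5p 1 lay below 0, at -1.75, while the other three lay at 0.08, 0.29 and 0.74, and the level of this miRNA was 0.09 by the total gene signal and 0.11 by the deposited values. With the dimmest probe of each miRNA in place of the mean, the median of the 5p arms was -0.26, so their place against that percentile depended on the probes used.

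Probes of a member did not read alike. The brightest and the dimmest probe of miR-200b-5p had mean spot signals of 237 and 42.5, a log2 difference of 2.48 ± 0.02 (SE over replicate spots). For miR-141-5p the means were 929 and 260, a difference of 1.83 ± 0.03. For miR-200c-5p they were 279 and 97.7, a difference of 1.51 ± 0.04. Among the 3p arms miR-200c-3p had the largest difference. Its probes A_25_P00012265 and A_25_P00012266 averaged 4648 ± 189 and 9438 ± 364 (SD, 10 spots each), and their spots did not overlap. The probes of miR-200a-3p, miR-141-3p and miR-200b-3p also had spots that did not overlap, while those of miR-429 overlapped. How often this holds over all miRNAs on the array was not counted. The difference of miR-200c-3p was 1.02 ± 0.03, while that of miR-200a-3p was 0.61 ± 0.02. Those of miR-141-3p and miR-200b-3p were 0.27 ± 0.03 and 0.25 ± 0.02. The probes of miR-429 read 7699 and 7617, a difference of 0.02 ± 0.02 that was within the spread between spots. The remaining difference, 0.24 ± 0.04, was that of miR-200a-5p.

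A difference of 1 or more was seen for 4 of the 9 members, compared with 19.6% of the 800 detected miRNAs with at least 2 probes past the filter on dim probes. The number of probes moved with it. Over all miRNAs a difference of 1 or more was found for 14.8% of those with 2 probes, 32.8% of those with 3 and 63.2% of those with 4, and the medians were 0.32, 0.51 and 1.17. The 3 members past 1 with 4 probes were all the members with 4 probes, and miR-200c-3p was the one of 5 with 2 probes. The part of probe number in the family count was not tested. For 8 of the 9 members the difference exceeded 3 of its standard errors, as it did for 65.4% of the 800.

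**Figure D4:**
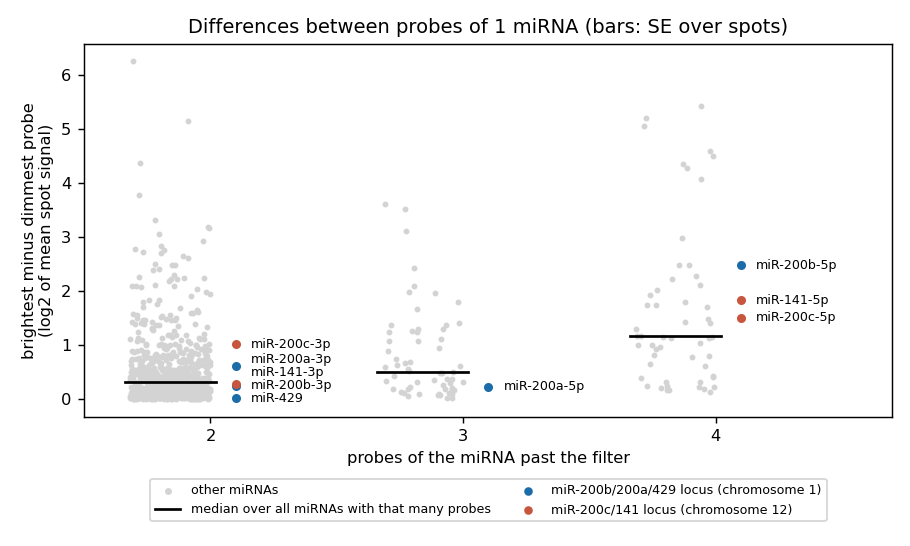
Log2 difference between the brightest and the dimmest probe of a miRNA, by the number of probes past the filter, with members coloured by locus (bars: SE over spots, hidden where small) and other miRNAs in grey. Horizontal lines mark medians over all miRNAs, 0.32, 0.51 and 1.17 for 2, 3 and 4 probes. The 3 members with 4 probes lie above their line and miR-429 lies close to 0.

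The order of the probes by number was compared with their brightness, a comparison chosen after the values had been seen. In each of the 3 members with 4 probes, miR-200b-5p, miR-200c-5p and miR-141-5p, the lowest-numbered probe was the dimmest and the highest-numbered the brightest. The same held for 54.4% of the 57 miRNAs with 4 probes past the filter. Among members with 2 probes the higher-numbered was the brighter for 3 of 5, namely miR-200b-3p, miR-200a-3p and miR-200c-3p, compared with 64.7% of 682 miRNAs. The 1 member with 3 probes, miR-200a-5p, did not follow this order, which 47.5% of 61 miRNAs with 3 probes did.

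Replicate spots of a probe were close to one another. The coefficient of variation (CV, SD over mean) had a median of 3.86% over the 25 member probes and ran from 0.740% to 6.34%. Its median was 3.79% for the 10 probes of the 3p arms and 4.16% for the 15 probes of the 5p arms. Over all 1940 probes past the filter it was 8.73%. Bright probes vary less, and over the 208 probes with a mean of 1000 or more the median was 3.76%, so the 3p arms stood near other probes of their brightness. For probes with a mean from 40 to 1000, the range of the 5p arms, the median over 977 probes was 6.88%.

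The authors' quantile-normalized log2 values placed the members in the same order. The deposited value was 12.9 for miR-200b-3p, 12.7 for miR-141-3p, 12.2 for miR-200a-3p, 11.2 for miR-429 and 11.1 for miR-200c-3p. Among the 5p arms it was 8.04 for miR-141-5p, 6.32 for miR-200c-5p, 5.997 for miR-200a-5p and 5.94 for miR-200b-5p. None of the members was at the floor of the table, 2.32. Set against the log2 total gene signal, the deposited values were lower by 0.20 to 0.34 for the 3p arms and higher by 0.07 to 0.15 for the 5p arms. The arms of a hairpin were therefore closer together in the deposited table than in the scanner file.

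**Figure D5:**
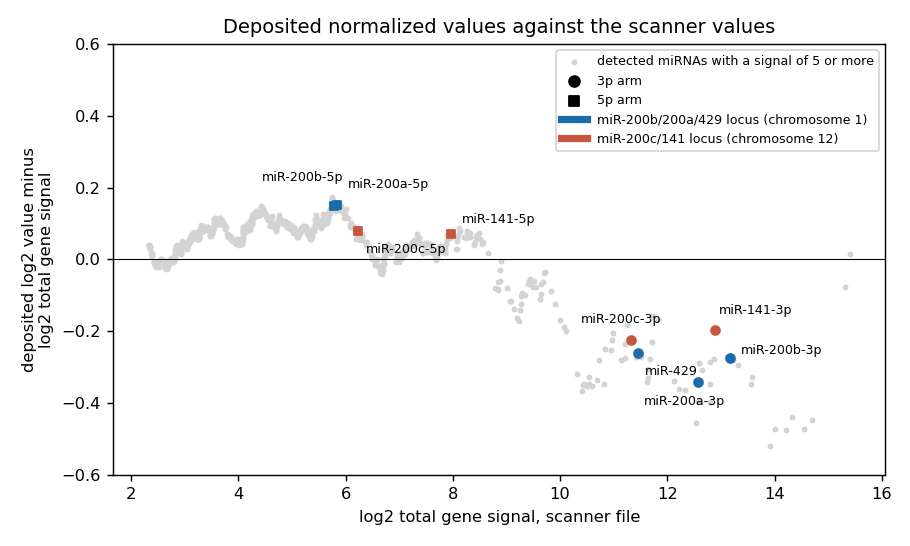
Deposited log2 value minus log2 total gene signal (vertical axis) against log2 total gene signal (horizontal axis) for the 849 detected miRNAs with a signal of 5 or more. Members of the 3p arms (circles) lie between -0.34 and -0.20 and those of the 5p arms (squares) between 0.07 and 0.15, along the course of the other miRNAs, in grey.

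The cells were checked against marker miRNAs outside the family, whose counts are to be read beside the 44.4% detected over all miRNAs on the array. Of 10 epithelial markers 9 were detected, with signals from 47.6 for miR-183-5p, a sensory and epithelial miRNA, to 1549 for miR-96-5p of the same cluster. The intestinal miR-192-5p, miR-194-5p and miR-215-5p were among them, at 832 ± 59.0, 319 ± 23.7 and 798 ± 56.5. The rest were miR-203a-3p (628 ± 44.5), miR-31-5p (282 ± 20.5), miR-182-5p (159 ± 9.50) and miR-375 (52.2 ± 3.88). The one undetected marker was miR-205-5p, which also acts on ZEB1 and ZEB2 and is typical of squamous epithelium, with 0 of 20 spots well above background. Of 8 mesenchymal and stromal markers 2 were detected, miR-126-3p of vessels at 123 ± 8.75 and miR-127-3p at 5.64 ± 0.788. The smooth muscle and fibroblast markers miR-143-3p, miR-145-5p, miR-199a-5p, miR-199a-3p, miR-199b-5p and miR-214-3p were not detected, and 1 spot of miR-199a-5p was the only one of theirs well above background. Of 4 blood markers 3 were detected, the lymphoid and myeloid miR-142-3p (695 ± 50.05), the red cell miR-451a (21.5 ± 1.67) and the granulocyte miR-223-3p (25.4 ± 1.97), while the lymphocyte miR-150-5p was not. Each 3p arm of the miR-200 family had a higher signal than any of these 22 markers, though on different probes.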

How the data were processed

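The data were 1 single-colour Agilent miRNA array of si-NC DLD-1 cells. The labels give Cyanine 3-pCp as the label, whereas the study's methods name a kit for cDNA. The scanner file was deposited with the background-subtracted intensity of every spot from Feature Extraction 11.0.1.1, not normalized between arrays. The authors also deposited log2 values, quantile normalized in GeneSpring, whose scale and floor were read from the values. Only the values of the si-NC sample were used.

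Members, marker lists and results were chosen with earlier results of these data known. The text names every member. Marker miRNAs are named by their detection, with values for those detected in the mesenchymal and blood lists and a spot count for miR-205-5p. The values of the detected epithelial markers were added after they were seen, and miR-550a-3p was named for its seed. Spots marked as outliers (4.51% over all miRNAs, 3.89% over members) did not enter means. For probe comparisons a probe needed at least 50% of its remaining spots well above background. Total gene signals and their errors are those of the software.

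Alternatives were 5 other detection rules, the percentile over all miRNA spots, normexp (offset 50), outlier spots kept, the brightest or dimmest probe, the total gene signal, the deposited values, no filter on dim probes, and removal of medians over 16 blocks of the array. A count was taken as unchanged within 1.5 times, and levels and probe differences within the SD over replicate spots. Python 3.11.15, numpy 2.4.6, pandas 2.3.3 and R 4.3.3 with limma 3.58.1 were used. The calculations were tested on simulated data over 5893 probes, where a CV of 10.0% came back as 9.49%. A simulated probe difference of 2.00 came back as 2.00 over 158 miRNAs with 2 probes. All simulated spots counted as well above background and none as outliers, so the filter and the removal of outliers were not tested. Of the 2549 miRNAs, 2248 matched a mature sequence of RefSeq (GRCh38.p14) by name, with 8 of the 9 members among them, miR-141-5p being the other. The array number limits the precision, and signal over background stands for depth.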

Additional observations from a re-analysis of the deposited data

How the results depend on the processing

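The count of 9 detected members was the same under all 5 other detection rules. The median level of the 3p arms, 6.84, became 9.28 where the reference was taken over all miRNA spots (26.3 in place of 143), to 6.37 with normexp, 7.14 with the brightest probe, 6.54 with the dimmest probe and 6.41 with the deposited values. The median of the 5p arms, 0.28, moved to 2.72 with the percentile over all spots, 0.85 with the brightest probe and -0.26 with the dimmest. The first shift of each follows from the lower reference and the probe shifts from the choice of probe. For normexp and the deposited values the cause was not tested. The median probe difference, 0.61, and the median CV, 3.86%, stayed within their spread under every alternative run, the CV ranging down to 2.88% with block medians removed. Of 63 alternative levels of single members 44 moved by more than the SD over spots and 19 did not. Signal over background was lowest for the dimmest probe of miR-200b-5p, at 2.63 times the 99th percentile of negative controls.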

Other observations

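The errors of the software were read beside the spread between spots. For the 25 member probes that error ran from 10.00% to 11.7% of the probe signal, while the CV between spots did not pass 6.34%. For total gene signals it was 7.07% to 7.47% in members with 2 probes, 5.91% in miR-200a-5p with 3, and 5.30% to 5.58% in those with 4. These relative errors were smaller where there were more probes. The 3 members with 4 probes, miR-200b-5p, miR-141-5p and miR-200c-5p, thus had the 3 smallest, and they also had the largest differences between probes. The total probe signal was 0.0183 times the number of spots times their mean for every probe past the filter. The dimmest probe of miR-200b-5p gave 7.02% of its total gene signal, and the brightest gave 39.2%.

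The miRNA sharing its seed with miR-200c-5p, miR-550a-3p, was detected at a total gene signal of 13.8 ± 0.972, beside 75.6 ± 4.01 for miR-200c-5p.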
